A study of Mus musculus with 8 samples.

Results

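The genes described here are 10 genes of the synthesis and use of polyunsaturated fatty acids, together with close relatives of these enzymes: the desaturases Fads1, Fads2 and Fads3, the elongases Elovl1, Elovl2 and Elovl5, the acyl-CoA synthetases Acsl3, Acsl4 and Acsl5, and the acyltransferase Lpcat3. They were chosen by symbol, with each probe's accession matched to the mouse RefSeq gene table, and all 10 were among the 42982 features (23915 of them genes with a symbol) that could be compared. The measurements come from liver RNA of male recombinant congenic mice that share the New Zealand Obese (NZO) background, a polygenic model of obesity and fatty liver, and the same high fat diet (45% fat). The strains were Ltg/NZO.5.3N/B (NB, 4 arrays) and Ltg/NZO.5.3N/N (NN, 4 arrays), from a cross of NZO/HiBomDife with C57BL/6J, and what sets them apart is 5.3 Mbp of chromosome 18. Feeding ended at week 5 by one label, while another gives 5 weeks as the age of the mice. None of the 10 genes lies on chromosome 18.

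Mammals cannot make linoleic and alpha-linolenic acid and take both from the diet. In the liver these are lengthened and given further double bonds in the endoplasmic reticulum: Fads2 makes the first new double bond, Elovl5 adds carbons, and Fads1 makes the next double bond, which yields arachidonic and eicosapentaenoic acid. Elovl2 lengthens these products further on the way to docosahexaenoic acid, whose last chain-shortening step takes place in peroxisomes. Acyl-CoA synthetases activate fatty acids for all of these reactions, and Lpcat3 puts polyunsaturated chains into phospholipids. Transcription of the pathway in liver is known to respond to the sterol regulatory element-binding protein encoded by Srebf1, to the liver X receptor encoded by Nr1h3 and to the peroxisome proliferator receptor encoded by Ppara.

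In GRCm38.p6, the 3 desaturase genes lie next to each other, with Fads3 at chr19:10040855-10060113, Fads2 at chr19:10062765-10101503 and Fads1 at chr19:10182877-10196874. Acsl5 lies elsewhere on the same chromosome, at chr19:55251861-55296628. Elovl1 lies on chromosome 4, Elovl2 on chromosome 13, Elovl5 on chromosome 9, Lpcat3 on chromosome 6, Acsl3 on chromosome 1 and Acsl4 on the X chromosome. The array read Fads2 and Fads3 with 1 probe each, shown because these neighbours from 1 gene family had correlations of opposite sign with Elovl2. The negative correlation, that of Fads3, was not called (r = -0.61, exact permutation test, adjusted p = 0.281). The Fads2 probe is 48 bases long and the Fads3 probe 47.
Fads2 probe: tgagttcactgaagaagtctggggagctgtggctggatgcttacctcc
Fads3 probe: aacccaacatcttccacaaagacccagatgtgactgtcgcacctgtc

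The RefSeq table of promoters held entries for 9 of the 10 genes (not for Fads1), with 11 windows of the 250 bases before a start. The windows of Fads2 (chr19:10101504-10101753, minus strand), Elovl2 (its outermost start, chr13:41220404-41220653, minus strand) and Elovl5 (chr9:77917115-77917364, plus strand) are shown because these genes were lowest on the same array. That of Acsl3 (chr1:78657575-78657824, plus strand) is shown as the gene with the widest range over arrays. Capitals mark the letters CCAAT or their reverse complement ATTGG, the core read by the factor NF-Y, which acts with sterol regulatory element-binding proteins at many lipid genes.
Fads2: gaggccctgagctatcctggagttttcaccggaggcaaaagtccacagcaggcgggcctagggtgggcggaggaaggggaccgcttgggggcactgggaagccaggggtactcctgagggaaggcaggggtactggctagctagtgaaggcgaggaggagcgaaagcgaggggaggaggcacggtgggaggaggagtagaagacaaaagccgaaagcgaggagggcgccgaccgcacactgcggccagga
Elovl2: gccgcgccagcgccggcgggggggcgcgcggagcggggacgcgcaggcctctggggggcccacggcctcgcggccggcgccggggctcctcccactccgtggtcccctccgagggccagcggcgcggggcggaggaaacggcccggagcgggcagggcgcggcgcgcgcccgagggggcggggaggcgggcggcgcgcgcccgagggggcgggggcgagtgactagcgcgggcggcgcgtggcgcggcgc
Elovl5: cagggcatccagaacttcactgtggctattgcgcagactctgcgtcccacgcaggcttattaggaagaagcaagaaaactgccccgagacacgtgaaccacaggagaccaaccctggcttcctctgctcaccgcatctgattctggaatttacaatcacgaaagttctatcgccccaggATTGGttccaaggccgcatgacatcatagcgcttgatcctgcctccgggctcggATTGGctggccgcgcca
Acsl3: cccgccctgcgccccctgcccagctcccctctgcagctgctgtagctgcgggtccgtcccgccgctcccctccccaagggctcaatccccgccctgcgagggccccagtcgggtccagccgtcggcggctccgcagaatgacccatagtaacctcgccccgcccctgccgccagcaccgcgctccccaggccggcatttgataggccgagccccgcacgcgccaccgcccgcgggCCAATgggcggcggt

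The CCAAT letters, on either strand, were in 6 of the 11 windows of these genes, against 33.8% of 32851 mouse promoters. Elovl5 held 2 copies and Acsl3 held 1, while Fads2 and Elovl2 held 0 in the windows shown. A core of the sterol regulatory element (TCACNCCAC, either strand) was in 0 of the 11 windows, against 1.05% of all promoters. The letters GGGCGG, either strand, were in 8 of the 11 windows, against 32.7% of all, with 5 copies in the Elovl2 window and 1 in that of Fads2. Direct repeats of AGGTCA, which nuclear receptors read, were in 0 of the 11 windows with a spacing of 1 or of 4 bases, against 0.0335% and 0.0152% of all promoters. These are matches of letters and not measured sites.

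All 8 arrays lay on 1 slide, and each of its 4 columns held 1 NB and 1 NN array. Arrays had similar depth: their 75th percentile of signal was 469 to 584 intensity units in NB and 445 to 538 in NN, and 74.4% to 79.6% of probes were well above background. Values below are log2 processed signal minus the 75th percentile of the same array, called log2 signal, and their size depends on the probe, so they are compared between arrays and never between genes. All 8 hepatocyte markers (among them Alb, Apoa1 and Ttr) were well above background on all 8 arrays. Their mean log2 signal lay between 6.70 and 6.81 in NB and between 6.74 and 6.80 in NN. All kept markers of pancreas (4), skeletal muscle (4) and gut epithelium (3) were also well above background on all 8 arrays. Detection alone therefore cannot check the tissue label. Lists of markers of 11 other cell types and tissues gave 0 called genes. Whether the arrays hold RNA of different animals is not stated in the labels, and the p-values then cover only the spread among these 8 samples.

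The comparison of NB with NN asks whether the chromosome 18 segment goes with a different level of these genes in liver. No gene of the 10 was called different between the genotypes (limma, Benjamini-Hochberg adjusted p under 0.05 over all features), where the background over all features was 3 called genes or transcripts (0.00698%), all higher in NB. The log2 fold change, NB minus NN, was negative in 7 of the 10 and positive in 3, with a median of -0.07 beside -0.01 over all features, of which 54.1% were negative. The lowest unadjusted p among the 10 was 0.166, for Elovl5 (limma), with an adjusted p of 1.00, and 0 of 10 had an unadjusted p under 0.05, against 1.69% of all features. In none of the 10 did NB and NN arrays separate without overlap, against 1.16% of all features. In whole liver, fewer cells of a type and less RNA per cell cannot be told apart.

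Fads2, which makes the first double bond of the pathway, had a log2 signal of 2.09, 1.92, 2.13 and 2.77 on arrays NB 2, 3, 5 and 8, against 2.63, 2.10, 2.70 and 2.41 on arrays NN 1, 4, 6 and 7. The highest array of all was NB 8 and the lowest NB 3, so the NB range took in all NN values. The mean was 2.23 ± 0.37 in NB and 2.46 ± 0.27 in NN (SD, n = 4 each), a log2 fold change of -0.23 (SE 0.201, 95% interval -0.69 to 0.23). At these limits NB could be up to 1.61-fold lower or 1.17-fold higher than NN.

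Fads1, which makes the next double bond, had 6.26, 5.77, 6.09 and 6.58 on the NB arrays in the same order, against 6.40, 5.84, 6.39 and 6.36 on the NN arrays. NB 3 and NN 4 were the lowest and NB 8 the highest, and the other 3 NN arrays lay between 6.36 and 6.40. The log2 fold change was -0.07 (SE 0.191, 95% interval -0.51 to 0.36). Its sign rested on NB 3: without that array it was 0.06.

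Fads3, a desaturase that acts on sphingoid bases, gave -4.36, -4.08, -4.06 and -4.55 in NB, against -3.95, -4.34, -4.65 and -4.56 in NN. Its probe was well above background on all 8 arrays, and NN 1 was its highest array and NN 6 its lowest. The log2 fold change was 0.11 (SE 0.174), and it changed sign, to -0.03, with another background correction (normexp).

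Elovl5, which lengthens the products of Fads2, was 6.11, 5.41, 5.81 and 6.12 in NB, against 6.32, 5.84, 6.14 and 6.21 in NN. NB 3 stood lowest, and the other NB arrays lay within the range of NN or just below it. The mean was 5.86 ± 0.33 in NB and 6.13 ± 0.21 in NN, and the log2 fold change was -0.26 (SE 0.174, 95% interval -0.66 to 0.13). Elovl5 was lower in NB in 4 of 4 slide columns, with NB minus NN differences of -0.21, -0.43, -0.32 and -0.09. With the slide column as a block, the unadjusted p was 0.0238 and the adjusted p 1.00 (limma). The share of all features with the same sign in 4 of 4 columns, or with such a p in that fit, is not given here. Without NB 3 the log2 fold change was -0.11.

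Elovl5 was the gene of the 10 with a second kept probe, which carries the accession of a predicted transcript. Its log2 signal was 0.58, 0.16, 0.52 and 1.03 in NB, against 1.00, 0.67, 1.10 and 1.04 in NN. NB 3 was again the lowest array, and the log2 fold change was -0.38 (SE 0.179, 95% interval -0.79 to 0.03). Both probes thus had the same sign, with an adjusted p of 1.00 for each (limma).

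Elovl2, which lengthens the longest polyunsaturated chains, was 4.36, 3.96, 4.28 and 4.68 in NB, against 4.48, 4.27, 4.54 and 4.57 in NN. NB 3 was the lowest and NB 8 the highest, as for Fads2 and Fads1. The mean was 4.32 ± 0.30 in NB and 4.47 ± 0.13 in NN, and the log2 fold change was -0.15 (SE 0.148, 95% interval -0.48 to 0.19), or -0.03 without NB 3. Elovl1, an elongase of saturated and monounsaturated very long chains, was the steadiest gene of the 10. It lay between 4.32 and 4.40 in NB and between 4.31 and 4.49 in NN, with a log2 fold change of -0.05 (SE 0.0708), and its highest array exceeded its lowest 1.13-fold.

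Acsl3, an acyl-CoA synthetase of the endoplasmic reticulum and lipid droplets, had the widest range. Its log2 signal was -1.64, -0.70, -0.83 and -0.52 in NB, against -1.31, -1.88, -0.37 and -0.96 in NN. The 3 lowest arrays, NN 4, NB 2 and NN 1, came from both genotypes, and the highest array exceeded the lowest 2.84-fold. The log2 fold change was 0.21 (SE 0.339, 95% interval -0.56 to 0.98), so NB could be up to 1.97-fold higher or 1.48-fold lower, and without NN 4 it was -0.04.

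Acsl4, a synthetase that prefers arachidonic acid, was 2.07, 1.91, 2.22 and 2.17 in NB, against 1.96, 1.86, 2.32 and 1.88 in NN. The groups overlapped throughout, and the log2 fold change was 0.09 (SE 0.122). Acsl5, a synthetase abundant in liver and gut, was 3.83, 4.01, 3.88 and 4.20 in NB, against 4.12, 3.93, 4.18 and 4.13 in NN, with a log2 fold change of -0.11 (SE 0.103). Lpcat3, the acyltransferase, was 3.88, 3.92, 3.75 and 3.95 in NB, against 4.12, 3.96, 3.83 and 3.84 in NN. Its log2 fold change was -0.06 (SE 0.0915, 95% interval -0.27 to 0.15), and NN 1 was the highest array and NB 5 the lowest.

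**Figure D1:**
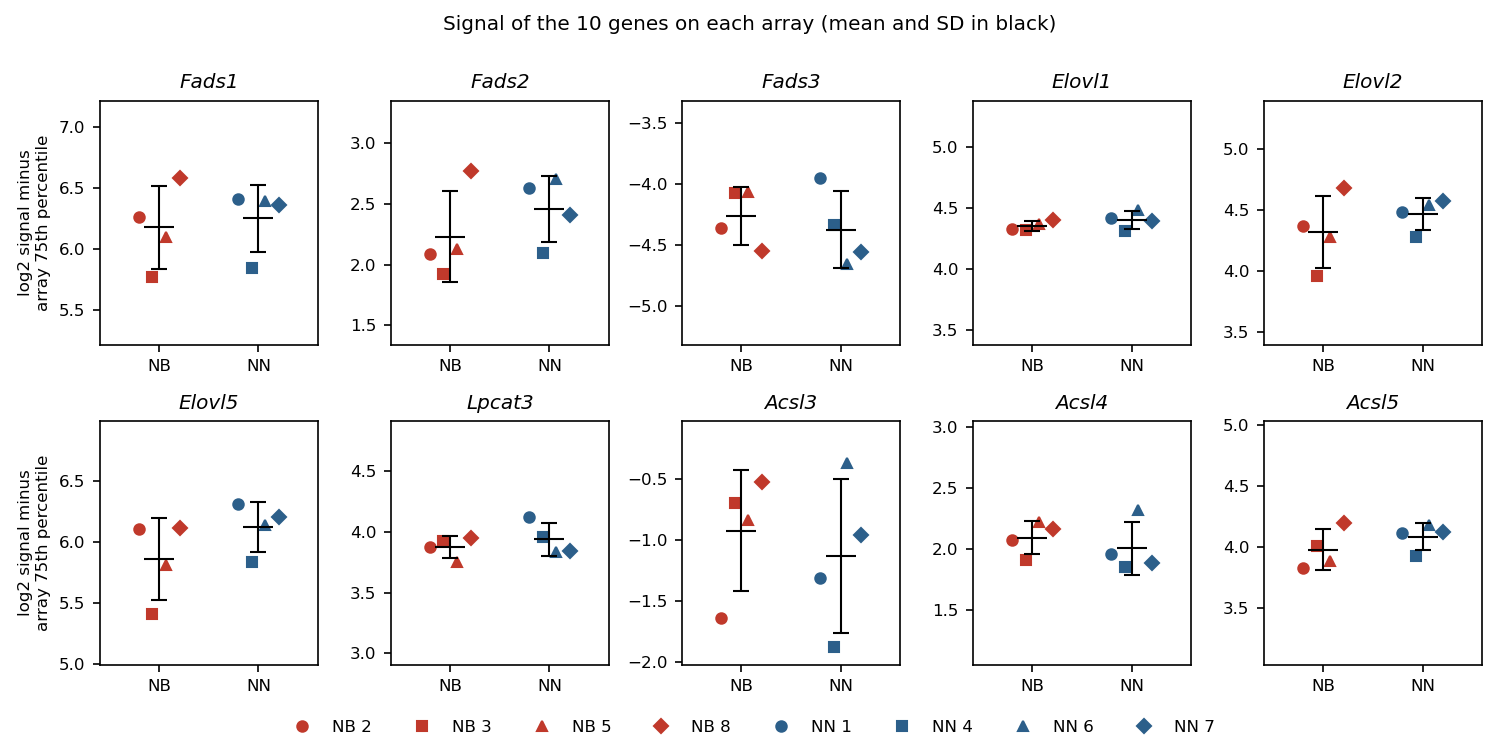
Each panel plots the log2 signal of 1 gene on the 4 NB arrays (left, red) and the 4 NN arrays (right, blue), with the mean and SD in black, and every panel spans the same number of log2 units. The genotypes overlap in all 10 panels, Acsl3 has the widest spread and Elovl1 the narrowest.

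**Figure D2:**
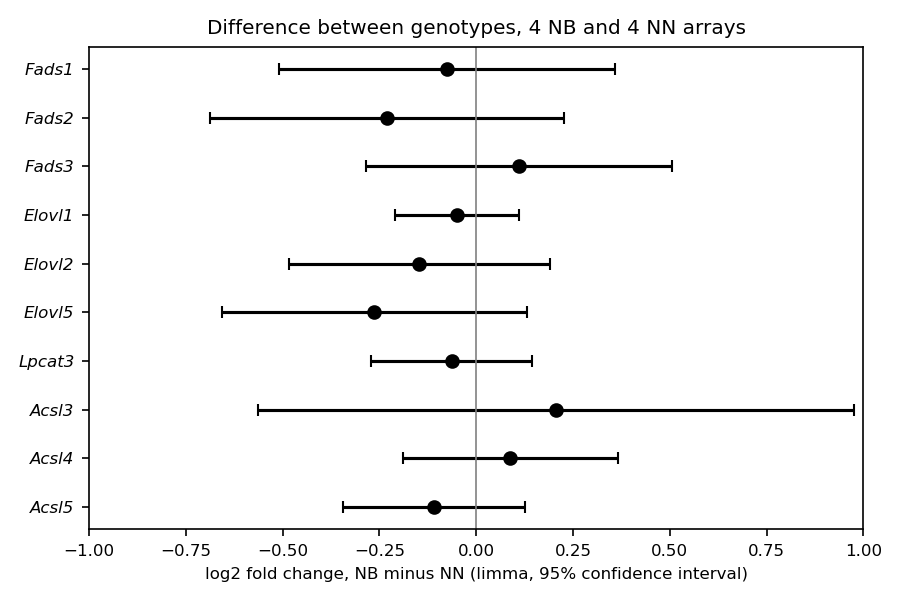
Points give the log2 fold change of each gene, NB minus NN, and bars the 95% confidence interval from limma (4 NB and 4 NN arrays). All 10 intervals cross 0, from -0.26 for Elovl5 to 0.21 for Acsl3.

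Several of the 10 genes differed widely between arrays of the same genotype, and some of them did so together. The SD over the 8 arrays was above the median of all features (0.168) in 7 of the 10, at 0.54 for Acsl3, 0.33 for Fads2, and 0.29 for both Elovl5 and Fads1. Fads1, Fads2, Elovl2 and Elovl5 were all lowest on NB 3, and the share of all features lowest on that array is not given here. Of these 4 genes, Fads1, Fads2 and Elovl2 were highest on NB 8, and Elovl5 was highest on NN 1.

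Among the 45 pairs of the 10 genes, 33 had a positive Pearson correlation over the 8 arrays, and 6 had an adjusted p under 0.05 (exact two-sided permutation test, Benjamini-Hochberg over the 45 pairs), with 10 at an unadjusted p under 0.05. The closest pair was Fads1 and Elovl2, the desaturase and elongase of later steps, with r = 0.930 (exact permutation p = 0.000273, adjusted p = 0.0123) and Spearman's rho = 0.905 (exact permutation p = 0.00456, adjusted p = 0.0964). Without NB 3 and NN 4, the arrays farthest from the median of Fads1, r was 0.947. The neighbouring genes Fads1 and Fads2 had r = 0.879 and rho = 0.905 (exact permutation p = 0.00367, adjusted p = 0.0392 for r).

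The other pairs past the threshold joined elongases with each other or with desaturases. Elovl2 had r = 0.893 with Elovl5 (rho = 0.762) and r = 0.877 with Fads2 (rho = 0.857), and Elovl5 had r = 0.868 with Fads1 (rho = 0.810). Fads2 had r = 0.874 with Elovl1 (rho = 0.857), whose own range was small. In these 4 pairs the p of r lay between 0.00303 and 0.00523 (exact permutation test), with an adjusted p of 0.0392 in each, and the lowest adjusted p of rho over all 45 pairs was 0.0964, so 0 pairs passed on ranks.

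The calls depended on the arrays and settings used. Without the 2 arrays farthest from the median of the first gene, r was 0.871 for Fads1 and Fads2, 0.818 for Fads2 and Elovl2, 0.847 for Elovl2 and Elovl5 and 0.923 for Fads2 and Elovl1, but 0.674 for Fads1 and Elovl5. No pair passed the adjusted threshold on these 6 arrays, where the smallest possible p was 0.00278, nor on deviations from the genotype mean, where r of the 6 pairs lay between 0.852 and 0.949. On the deviations, Fads2 and Elovl1 had the smallest possible p, 0.00174 (exact permutation within genotypes), yet an adjusted p of 0.0781. In both settings a pair alone could not pass over 45 pairs, so these 0 counts do not by themselves show weaker relations. With normexp 0 pairs passed, and r was 0.640 for Elovl2 and Elovl5, 0.753 for Fads2 and Elovl2, and between 0.822 and 0.878 for the other 4 pairs. With quantile normalization Fads2 and Elovl1 had r = 0.668 (exact permutation test, adjusted p = 0.259) and Elovl2 and Elovl5 r = 0.872 (adjusted p = 0.0796), and the other 4 pairs passed. The count of 6 pairs was 0 without NB 3, without NN 1 or without NN 6, 2 without NB 2, NB 5, NN 4 or NN 7, and 4 without NB 8.

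**Figure D3:**
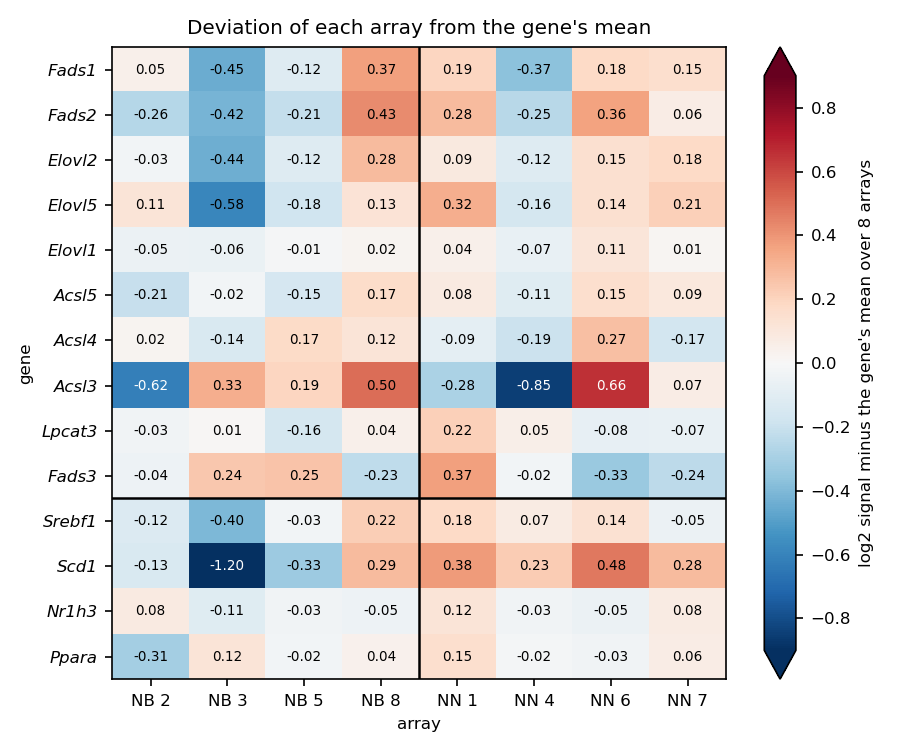
Colours and figures give the deviation of each array (columns, 4 NB left and 4 NN right) from the mean of a gene over the 8 arrays, in log2 units, for the 10 genes and, under the line, Srebf1, Scd1, Nr1h3 and Ppara. Fads1, Fads2, Elovl2 and Elovl5 are low on NB 3. Fads1, Fads2 and Elovl2 are highest on NB 8 and Elovl5 on NN 1, while Acsl3 is low on NB 2, NN 1 and NN 4.

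**Figure D4:**
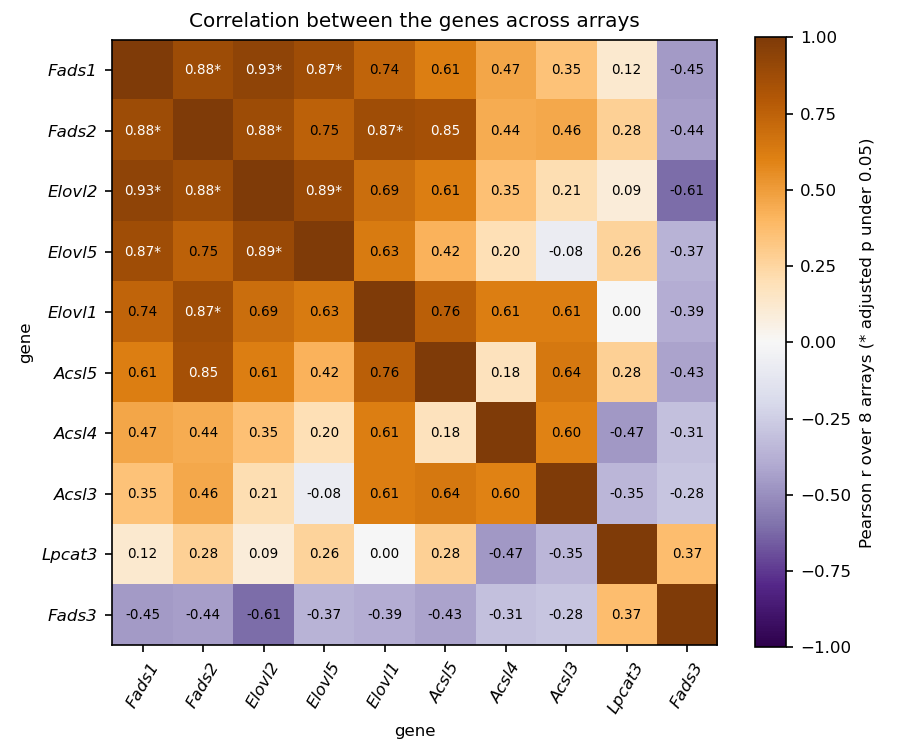
Colours and figures give the Pearson correlation of each pair of the 10 genes over 8 arrays, with a star at an adjusted exact permutation p under 0.05 (45 pairs). The 6 starred pairs are among Fads1, Fads2, Elovl1, Elovl2 and Elovl5, and Fads3 has negative values with all genes but Lpcat3.

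Some of these genes differed between slide columns more than the median feature and others less, and no test was made of this. The share of the sum of squares over the 8 arrays between the 4 columns had a median of 54.6% over all features. It was 85.9% for Fads1, 74.4% for Acsl4, 73.1% for Elovl2, 71.5% for Elovl5 and 54.7% for Elovl1. It was 53.9% for Lpcat3, 52.6% for Acsl3, 47.6% for Fads2, 39.2% for Fads3 and 35.1% for Acsl5. Within columns, NB minus NN was -0.15, -0.07, -0.30 and 0.22 for Fads1, and -0.54, -0.17, -0.57 and 0.36 for Fads2. For Elovl2 it was -0.12, -0.32, -0.26 and 0.11. Each of these 3 genes was lower in NB in 3 of 4 columns, and the part of the column in the correlations was not tested.

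Fads3 had negative correlations with the other desaturases. Its r was -0.45 with Fads1, -0.44 with Fads2 and -0.61 with Elovl2, none of them past the threshold. Lpcat3 had r between -0.47 and 0.37 with the other 9 genes, and Acsl4, which had r = 0.60 with Acsl3, had no pair past the threshold either. Acsl5 had r = 0.845 with Fads2 (rho = 0.810, exact permutation p = 0.0179 and adjusted p = 0.115 for r).

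Srebf1, Scd1, Nr1h3 and Ppara were then set beside the 10 genes in 40 pairs, a choice made after the values were seen. Srebf1, whose protein switches on fatty acid synthesis, had a log2 signal of 4.28, 4.00, 4.38 and 4.62 in NB, against 4.58, 4.47, 4.54 and 4.35 in NN. Scd1, which makes monounsaturated fatty acids and is a known target of that protein, had 6.26, 5.19, 6.07 and 6.68 in NB, against 6.77, 6.62, 6.87 and 6.68 in NN. Both were lowest on NB 3, the array on which Fads1, Fads2, Elovl2 and Elovl5 were lowest.

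None of the 40 pairs passed the adjusted threshold (exact two-sided permutation test, Benjamini-Hochberg over the 40 pairs), and 8 had an unadjusted p under 0.05. The lowest adjusted p was 0.104 (unadjusted p between 0.00702 and 0.0104), shared by Elovl5 and Scd1 (r = 0.879, rho = 0.857), Elovl2 and Scd1 (r = 0.878, rho = 0.738), Fads2 and Srebf1 (r = 0.825, rho = 0.881) and Fads2 and Scd1 (r = 0.767, rho = 0.857), all by the exact permutation test. The value for Elovl5 and Scd1 rests on NB 3 and NB 5: without them r was 0.260. Without the 2 arrays farthest from the median, r was 0.743 for Fads2 and Srebf1, 0.707 for Elovl2 and Scd1 and 0.761 for Fads2 and Scd1. Acsl3 had r = 0.04 with Srebf1 (rho = 0.24, exact permutation p = 0.936 for r) and r = -0.10 with Scd1 (rho = 0.26, exact permutation p = 0.828 for r).

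The Fads2 and Elovl5 values had close matches among 23636 genes with a symbol and 8 values, given as a description. The matches were picked for the highest r among so many genes over 8 arrays. How high r would reach without any relation was not tested. The 5 genes with the highest r to Fads2 were Acss2 (0.974), which makes acetyl-CoA from acetate, Mbl2 (0.972), a mannose-binding lectin made by liver, Smarca4 (0.966), a chromatin remodelling ATPase, Tmem8b (0.960) and Mmd2 (0.958). Those of Elovl5 were E2f2 (0.970), a cell cycle transcription factor, Hao2 (0.968), a peroxisomal hydroxy acid oxidase, Foxr2 (0.967), Aurkb (0.950), a mitotic kinase, and Cops9 (0.944). The 10 genes themselves were left out of the ranking.

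For Acsl3, the 3 lowest arrays were NN 4, NB 2 and NN 1, and these were the 3 lowest in 0 of the other 9. Acsl3 was set beside 18 enzymes of cholesterol synthesis, a list added after its closest matches over arrays had been seen to include Cyp51 and Fdft1. The same 3 arrays were the 3 lowest in 15 of the 18 (83.3%), against 7.79% of the 42512 features with 8 values, and the exceptions were Acat2, Tm7sf2 and Ebp. The list is a description, since it was chosen for this likeness.

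Sqle, squalene epoxidase, had a log2 signal of 1.36, 2.96, 2.66 and 3.23 in NB, against 1.10, 0.81, 3.59 and 2.79 in NN. Cyp51, the sterol demethylase, had 2.14, 3.29, 2.95 and 3.35 in NB, against 2.17, 1.82, 3.50 and 2.93 in NN. In both enzymes NB 2, NN 1 and NN 4 were low and the other 5 arrays high, so the arrays of both genotypes fell into separate sets. Acsl3 had the same 3 lowest arrays but no clear gap, with -1.31 on NN 1 and -0.96 on NN 7. No correlation of Acsl3 with these enzymes over the 8 arrays was tested. None of the 18 enzymes was called between genotypes (limma).

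Of the 12 marker lists, 1, that of Kupffer cells, had the same 3 lowest arrays, where 7.79% of single features with 8 values had them. A count of 1 list in 12 is near that share. Among the Kupffer cell markers, Timd4 and Vsig4 did not have these 3 lowest arrays. Marco had the widest range of them, from -0.67 on NN 1 to 1.79 on NB 5, and weighs most in the mean. The mean deviation of the 8 Kupffer cell markers, genes of the resident macrophages of liver, was -0.22, 0.24, 0.24 and 0.16 in NB, against -0.35, -0.36, 0.11 and 0.17 in NN, with NN 4, NN 1 and NB 2 the lowest. All 8 markers were kept and well above background on all 8 arrays, 7 of 8 had a positive log2 fold change, 0 were called, and their mean log2 signal lay between 1.95 and 2.41 in NB and between 1.81 and 2.34 in NN. The mean deviation of the hepatocyte markers moved less, between -0.07 and 0.04 in NB and between -0.03 and 0.03 in NN. This holds for the mean and not for each marker. Cps1 ran from 5.54 on NB 3 to 6.31 on NN 4, while the Kupffer cell marker Clec4f ran from 3.32 on NN 4 to 3.75 on NB 3. The part of these cells in the Acsl3 values was not tested.

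**Figure D5:**
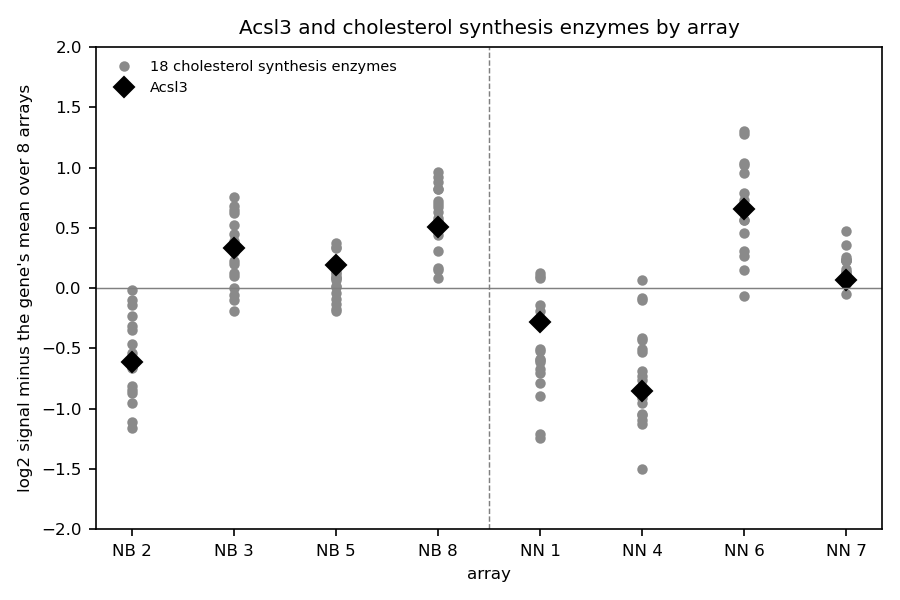
Points give the deviation of each array (4 NB left, 4 NN right) from the mean of a gene over the 8 arrays, in log2 units, for Acsl3 (black) and 18 enzymes of cholesterol synthesis (grey). Acsl3 lies below 0 with most enzymes on NB 2, NN 1 and NN 4, and above 0 on the other 5 arrays.

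The surrounding pathway was read from 10 lists of related genes. Of 116 genes listed 114 were measured, 0 were called (limma, adjusted p under 0.05), and 2 had an unadjusted p under 0.05, which is 1.75% beside 1.69% of all features. The log2 fold change was negative in 72 and positive in 42, with a median of -0.03. The 2 genes were desaturases of saturated fatty acids: Scd1, whose values are given above, with a log2 fold change of -0.69 (SE 0.270, unadjusted p = 0.0326, adjusted p = 1.00, limma), and Scd4, with -0.78 (SE 0.312). Scd4 had 2.15, 0.92, 1.93 and 2.59 in NB, against 2.60, 2.69, 2.97 and 2.46 in NN. NB 3 was the lowest array of both genes, and NB 8 lay within the NN range.

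The other desaturases had a negative log2 fold change in 4 of 6 measured genes, and the other elongases in 4 of 4. Elovl6, which lengthens saturated and monounsaturated chains, had 1.15, 0.24, 1.02 and 1.80 in NB, against 1.21, 0.99, 2.23 and 1.77 in NN, a log2 fold change of -0.50 (SE 0.358). NB 3 was again the lowest array and the groups overlapped. Elovl4, an elongase of very long chains, had -0.14 (SE 0.117) on 2 NB and 3 NN arrays, since its spots on the other 3 arrays were marked as outliers and left out of its fit.

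Of the 7 enzymes that complete each round of elongation, 6 had a positive log2 fold change, among them Hacd4, a dehydratase (0.13, SE 0.121), while the reductase Tecr had -0.09 (SE 0.101). The cytochrome b5 system that supplies desaturases with electrons was negative in 4 of 6, with Cyb5r3 at -0.10 (SE 0.0717) and Cyb5b at -0.07 (SE 0.120). Of the 12 genes of peroxisomal chain shortening, which makes the last step to docosahexaenoic acid, 10 were negative. The transporter Abcd3 had -0.18 (SE 0.0926) and the thiolase Acaa1b had -0.27 (SE 0.229).

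Other acyl-CoA synthetases were negative in 8 of 13, with Acsm5 at -0.15 (SE 0.0892) and Slc27a3 at -0.15 (SE 0.125). Other lysophospholipid acyltransferases were negative in 9 of 14, with Mboat2 at -0.16 (SE 0.106) and Agpat2 at -0.11 (SE 0.0717). Phospholipases A, which release the stored chains, were positive in 8 of 11, with Pla2g12a at 0.28 (SE 0.203) and Pnpla6 at -0.10 (SE 0.0858). These counts carry no test, and 0 genes of these lists were called.

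Enzymes that turn arachidonic acid into eicosanoids were negative in 16 of 20 measured genes. Alox5ap, which presents arachidonic acid to the lipoxygenase of leukotriene synthesis, had 0.03, 0.56, 0.48 and 0.34 in NB, against 0.04, -0.12, 0.18 and 0.17 in NN, a log2 fold change of 0.29 (SE 0.128). NB 3, NB 5 and NB 8 lay above all NN arrays, and NB 2 did not. Cyp4f14, which inactivates leukotrienes, had -0.15 (SE 0.0856). Alox5ap is also expressed by macrophages, and the part of the Kupffer cell values above in it was not tested.

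Of 21 regulators of lipid synthesis, 13 had a negative log2 fold change and 0 were called. Srebf1 had -0.17 (SE 0.131), Nr1h3 -0.05 (SE 0.0777), Ppara -0.09 (SE 0.104) and Insig2, which holds the sterol-regulated proteins in the endoplasmic reticulum, -0.26 (SE 0.200). Insig2 had 5.09, 4.29, 4.36 and 4.42 in NB, against 5.17, 4.83, 4.58 and 4.63 in NN. NB 2 lay above 3 NN arrays, and the other 3 NB arrays lay below all of them.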

How the data were processed

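Liver RNA of 4 NB and 4 NN samples was labelled with Cy3 from 1 ug and hybridised to Agilent arrays, after selection for an RNA integrity number above 8, per the labels. The deposited scanner files give intensity values per spot, quantified with Agilent Feature Extraction 11.5.1.1 per the file headers and 9.1 per the submitters' processing notes. The authors' processed intensity is background-subtracted, per the file headers. The authors' value table holds intensity in 59448 rows whose 8 columns have the same sorted values, with a median of 84.2; the scale and any centring of that table are not given in the sources used here, and it served as an alternative. Apart from controls there were 61473 spots and 60273 probes. On each array 248 to 621 spots carried an outlier mark and were treated as missing, and 0 were saturated.

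From the deposited intensity, log2 values were taken minus the 75th percentile of each array. Accessions matched without version to RefSeq (GRCm38.p6) named 31064 probes of 26698 genes. Probes well above background on at least 4 arrays were kept (46848), with the brightest probe per gene, which left 42982 features. The test of NB against NN used limma 3.58.1, under R 4.3.3 (lmFit, eBayes, two-sided, Benjamini-Hochberg, threshold 0.05). Correlations used exact permutation over 8 arrays in Python 3.11.15 with scipy 1.17.1. Their smallest possible p was 4.96e-05 over 8 arrays, 0.00278 over 6 and 0.00174 within genotypes. The number of arrays limits the precision.

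The 10 genes and the related lists were chosen with earlier results of these data known. All 10 are named, with every kept probe, and from each list up to 2 genes with the smallest unadjusted p, Srebf1, Nr1h3, Ppara and Scd1, and the 5 genes with the highest r to Fads2 and to Elovl5. Genes of cholesterol synthesis, the Kupffer cell markers beside Acsl3 and the matches of Acsl3 were named after their values were seen, and 2 genes are not reported here. Marker lists covered hepatocytes and 11 other cell types or tissues. Alternatives covered background correction, scaling, the authors' table, filters, probe summary, variance model, array weights, the row and the column on the slide, arrays left out 1 at a time, and an adjusted p of 0.1. Sample numbers from 1 to 8 are not shared between genotypes. The fit was also tested on simulated data, with 42512 features and 50 of them changed per size. It called 38% of changes of 0.5 log2 units, 76% of changes of 1, and 100% of changes of 2 or 3, and made 8 false calls. The changed features were drawn from all features, with independent noise, so these rates are not those of the 10 genes.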

Additional observations from a re-analysis of the deposited data

Results flagged for a closer look

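A total of 126 sets of 4 arrays, for the named genes and the marker scores, were screened for 1 array far from the other 3 (gap over range above Dixon's 95% critical value). Chance alone marks about 5% of such sets, and 6 were found. Among the 10 genes, this was Fads1 on NN 4, with a log2 signal of 5.84 beside 6.36 to 6.40 on the other NN arrays.

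Of the related regulators and matches, Insig2 had 5.09 on NB 2, beside 4.29 to 4.42 on the other NB arrays. Smarca4, 1 of the closest matches of Fads2, had 2.72 on NN 4, beside 2.84 to 2.85. Among the matches of Acsl3, Myh9 had 2.66 on NB 2, beside 2.99 to 3.03, and Stat3 had 2.13 on NB 2, beside 2.55 to 2.61. The mean deviation of the pancreas markers was 0.15 on NB 3, beside -0.04 to -0.02 on the other NB arrays. Myh9 and Stat3 were named after their values were seen.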

How the results depend on the processing

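The number of called genes and transcripts was 3, and 5 with the mean of the kept probes of a gene, the one planned setting that moved it past 1.5 times; with each array left out it ranged from 2 to 3. The count of called genes among the 10 and among the related lists was 0 under every setting run, and the lowest adjusted p of any of the 10 was 1.00 (limma). Of 210 repeats of the fold changes of the 10 genes over 21 settings, 207 kept their sign. The other 3 were Fads3 with normexp (-0.0266), Fads1 without NB 3 (0.0615) and Acsl3 without NN 4 (-0.0437). Several of the settings left these fold changes as they were, so their repeats could not change sign. They were the filters, every kept probe as a feature, the variance model, and the row or column as a block. The mean of the kept probes changed Elovl5 alone. The count of 207 therefore overstates how far the signs were tried. With each array left out, the median of the 10 log2 fold changes ranged from -0.13 to -0.03, Elovl5 from -0.36 to -0.11, Fads2 from -0.41 to -0.13, Fads1 from -0.211 to 0.0615, and Acsl3 from -0.0437 to 0.459.

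The count of pairs past the threshold, 6 with all arrays, was 0 on deviations from the genotype mean, 0 without the 2 arrays farthest from the median and 0 with normexp. It was 6 with quantile normalization, of which 4 were among the pairs called with the 75th percentile. With each array left out, a setting added after the data were seen, it ranged from 0 to 4, and the 0 counts came without NB 3, NN 1 or NN 6. Fewer arrays, or permutation within genotypes, leave fewer permutations. The 0 counts on deviations and without the 2 arrays therefore do not by themselves show weaker relations, and for normexp the cause was not tested. The r of Fads1 and Elovl2 ranged from 0.904 to 0.984 with each array left out, and that of Elovl2 and Elovl5 from 0.714 to 0.948. No paired analysis by sample number was possible because the numbers in the labels are not shared between the genotypes. Paired by slide column, which held 1 array of each genotype, 0 of the 10 genes were called. The lowest unadjusted p of the 10 was 0.0238, for Elovl5 (limma), with no share of all features given for that fit. With 4 arrays a genotype, the simulated data gave calls for 38% of changes of 0.5 log2 units. The simulation drew on the spread of all features, while 7 of the 10 genes had an SD above the median of all features. Its rates therefore do not give the size of change that could be called in these genes.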
